A study of Mus musculus with 12 samples.

Results

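Respiratory chain genes were examined in mouse liver. They encode the subunits of complexes I to IV, the carrier cytochrome c and the subunits of ATP synthase (complex V). Members were taken from the deposited count table by symbol: Nduf genes (the complex I assembly factors named Ndufaf included), Sdh, Uqcr, Cox4 to Cox8, Atp5, Cycs and Cyc1, with the 13 protein-coding genes of mitochondrial DNA (mtDNA). This gave 104 of the 15140 genes in the table, 91 nuclear and 13 on mtDNA, and all 104 were tested.

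Liver messenger RNA was sequenced after polyA selection in 12 libraries. The 6 KO libraries came from male Phb1adipo-/- mice, labelled Phb1 KO, and the 6 WT libraries from male wild-type mice. Both groups ate a high-fat diet with 60 kcal% fat (D12492) for 3 months, begun at 7 to 8 weeks of age. Adipocytes were the cells targeted, and RNA of whole liver therefore cannot test the deletion. Neither the strain nor the Cre driver is stated in the sources used here. In these livers Phb, which encodes prohibitin 1, an inner mitochondrial membrane scaffold protein, had 94.2 ± 4.44 CPM in KO livers and 85.2 ± 3.77 CPM in WT livers (SD, n = 6 each), with an edgeR Benjamini-Hochberg adjusted p of 0.144. CPM, the usual relative unit of RNA-seq, are read counts scaled to library size and composition.

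The respiratory chain lies in the inner mitochondrial membrane. Complexes I and II pass electrons to coenzyme Q, complex III hands them to cytochrome c, and complex IV transfers them to oxygen. Protons pumped by complexes I, III and IV drive ATP synthase. Most subunits are encoded in the nucleus and imported, while mtDNA encodes a few core subunits of complexes I, III, IV and V. In liver the chain takes up electrons released by fatty acid oxidation.

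Total counts were 34121087 to 37973022 per library in KO and 30348123 to 40828767 in WT. All 6 hepatocyte markers were measured, and their summed level was 62080 to 86880 CPM in KO and 58630 to 89000 CPM in WT. Of the 6, 4 were positive (median log2 fold change 0.19) and 1 rose, Tat, a liver enzyme of tyrosine breakdown, with 1222 ± 157 CPM in KO and 704 ± 148 CPM in WT (SD, n = 6 each; edgeR, Benjamini-Hochberg adjusted p = 0.0176). The part of these markers in the members' differences was not tested. No label ties the libraries to separate animals, and each p-value is therefore relative to library-to-library spread, which may be technical. In whole tissue, fewer cells of a type and less RNA per cell cannot be told apart. KO library 3 stood apart before any comparison: it was the highest of the 12 libraries for 47 of 91 nuclear members.

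Cycs, the gene of cytochrome c, and Ndufa12, a supernumerary subunit gene of complex I, were the 2 members that rose in KO livers. The other members did not pass the test and 0 members fell. The proportion called, 1.92%, was below the 2.64% of all 15000 tested genes that were called, and 1.15% of all tested genes rose, so the count does not set the members apart. At an unadjusted p under 0.05, 21 members were higher and 0 lower, against 10.7% of all tested genes higher. The differences were small: the median log2 fold change was 0.12 over the 104 members and 0.0031 over all tested genes. In sign, 99 of 104 members were positive, against 50.6% of all tested genes. Members shared high and low libraries, so their signs are not independent, and without KO library 3 the count was 91 of 104. Among the 8318 tested genes within the 5th to 95th percentile of the nuclear members' level, 53.9% were positive and the median was 0.017.

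A gene was called where its Benjamini-Hochberg adjusted p was under 0.05 in the edgeR quasi-likelihood test, two-sided, with 6 libraries per group. A log2 fold change is KO over WT, so a positive value means higher in KO.

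The windows below show the start regions of the 2 genes that rose. Each runs from 250 bases before to 50 bases after the RefSeq start site (GRCm38.p6), 5′ to 3′ on the gene's strand. Capitals mark matches to cores of motifs bound by factors known to control respiratory chain genes. They are NRF1 (GCGCANGCG), ETS proteins such as GABP (CCGGAAG), YY1 (AAGATGGCG), CREB (the CRE, TGACGTCA) and SP1 (the GC box, GGGCGG). Both strands were searched, and matches of different motifs were counted separately where they overlapped. The Cycs window is chr6:50566520-50566819 on the minus strand, and the Ndufa12 window is chr10:94198785-94199084 on the plus strand.
Cycs: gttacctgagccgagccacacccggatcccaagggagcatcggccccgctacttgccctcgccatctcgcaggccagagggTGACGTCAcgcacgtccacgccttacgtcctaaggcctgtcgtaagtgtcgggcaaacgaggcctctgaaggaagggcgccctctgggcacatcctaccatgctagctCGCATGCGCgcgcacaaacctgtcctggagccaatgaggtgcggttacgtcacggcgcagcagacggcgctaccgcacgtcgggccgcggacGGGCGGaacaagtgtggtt
Ndufa12: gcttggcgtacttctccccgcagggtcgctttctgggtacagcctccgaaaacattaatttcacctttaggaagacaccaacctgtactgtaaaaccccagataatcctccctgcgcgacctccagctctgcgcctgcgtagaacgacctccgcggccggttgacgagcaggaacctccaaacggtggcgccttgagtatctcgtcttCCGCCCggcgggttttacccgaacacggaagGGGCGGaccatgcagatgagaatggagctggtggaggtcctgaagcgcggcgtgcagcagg

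The Cycs window holds a CRE at -169 to -162, an NRF1 core at -61 to -53 and a GC box at 32 to 37, counted from the start site. The Ndufa12 window holds GC boxes at -42 to -37 and -11 to -6, and none of the other 4 motifs in these letters. RefSeq windows matched 75 of the 104 members. The NRF1 core was in 23 of the 75 (30.7%), against 7.03% of 27025 genes with a window. The ETS core was in 25.3% against 9.93%, the YY1 core in 10.7% against 1.64%, the CRE in 6.67% against 2.03% and the GC box in 45.3% against 38.2%.

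Members with and without the NRF1 core had differences of like size, with median log2 fold changes of 0.12 in the 23 with it and 0.115 in the 52 without. For the CRE, which is in Cycs, the medians were 0.15 in the 5 with it and 0.112 in the 70 without. They were 0.115 and 0.12 for the ETS core, 0.118 and 0.115 for the YY1 core, and 0.115 and 0.12 for the GC box. None of these differences was tested. The NRF1 windows of 5 members are shown because the core stands in genes with larger and with smaller differences. Capitals mark the first match of each gene. Ndufa8, Ndufaf5, Cox6a1 and Sdha have further matches that are not marked, and in Ndufaf5 and Cox6a1 one overlaps the first. They are at chr2:36049349-36049377 (minus), chr2:140170652-140170680 (plus), chr5:115349102-115349130 (minus), chr13:74350320-74350348 (minus) and chr9:50603910-50603938 (minus), in the order printed. Log2 fold changes were 0.26 for Ndufa8, 0.26 for Ndufaf5, 0.18 for Cox6a1, 0.07 for Sdha and 0.07 for Sdhd. A match is a description of these letters, not evidence of binding.
Ndufa8: tagagcagtgCGCTTGCGCgtcgctggag
Ndufaf5: agtcccgttgGCGCATGCGcctaatagaa
Cox6a1: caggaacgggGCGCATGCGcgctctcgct
Sdha: cgtttacaggGCGCAGGCGcaccaccact
Sdhd: tcgctggggtGCGCACGCGcggtggcagc

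Cytochrome c, the mobile carrier between complexes III and IV, showed the largest difference among nuclear members. Cycs (ENSMUSG00000063694, chr6:50562563-50566538, minus strand) had 70.1, 80.6, 80.0, 73.6, 72.8 and 81.0 CPM in KO libraries 1 to 6. It had 52.4, 49.2, 62.8, 48.1, 59.3 and 62.4 CPM in WT libraries 1 to 6. Every KO library lay above every WT library, and KO library 3 was not the highest. Cycs averaged 76.3 ± 4.74 CPM in KO and 55.7 ± 6.63 CPM in WT (SD, n = 6 each). On the log2 scale KO livers were higher by 0.45 ± 0.08 (SE), with an adjusted p of 0.0176 in edgeR's test after Benjamini-Hochberg correction.

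With each library left out in turn, Cycs passed the test in 10 of 12 fits, and it missed it without WT library 2 and without WT library 4 (edgeR adjusted p up to 0.0504). The authors' deposited table gave Cycs a log2 fold change of 0.46 and an adjusted p of 0.0256, and Cycs was the 1 member under 0.05 there, where 5.58% of genes were and 2.6% were higher. A near-identical gene, Gm10053 on chromosome 19, shares 946 bases with Cycs at 99.894% identity, so reads of the pair are uncertain. Gm10053 also rose, with 7.49 ± 0.844 CPM in KO and 5.29 ± 0.813 CPM in WT (log2 0.50, edgeR, Benjamini-Hochberg adjusted p = 0.0420). With the pair summed the log2 fold change was 0.46 and the adjusted p 0.0159.

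**Figure D1:**
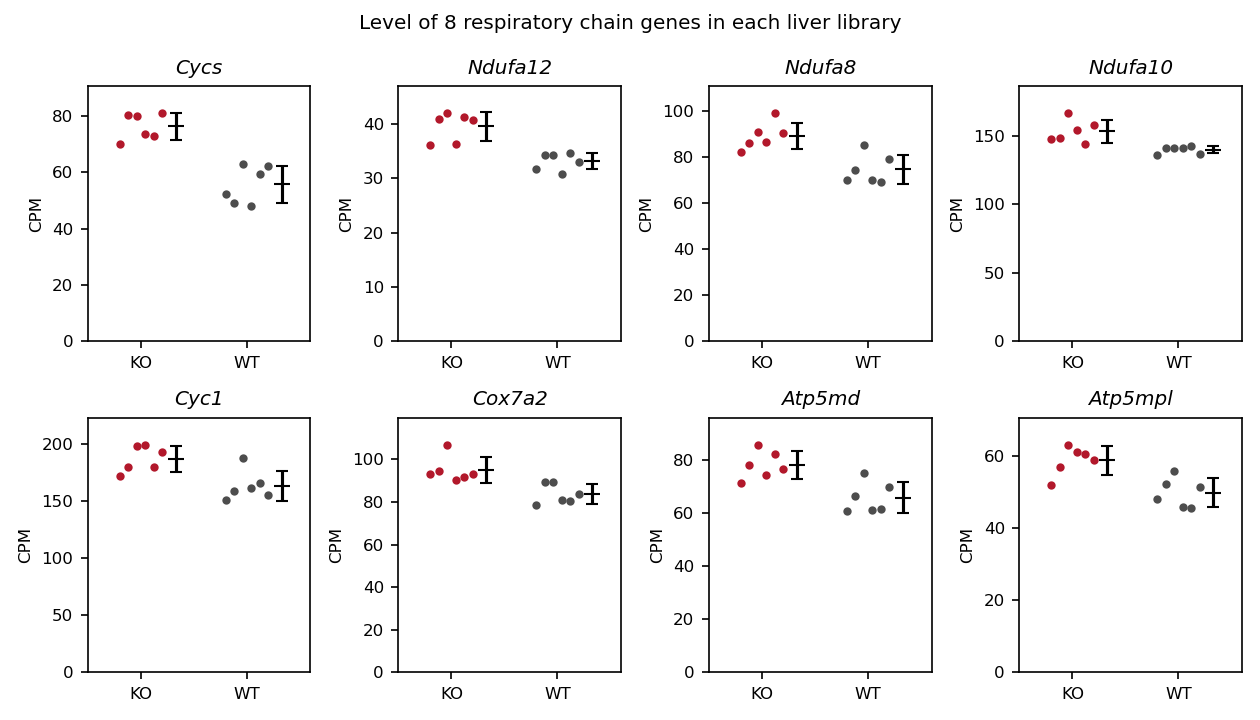
Level in CPM of Cycs, Ndufa12, Ndufa8, Ndufa10, Cyc1, Cox7a2, Atp5md and Atp5mpl, with 1 point per library, KO left of WT, and the black bar showing mean ± SD (n = 6 each). Points of KO and WT do not overlap for Cycs, Ndufa12, Ndufa10 and Cox7a2, and they overlap for the other genes.

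Complex I, the NADH dehydrogenase, had 46 nuclear members, of which 1 rose and 43 were positive, with a median log2 fold change of 0.12. Ndufa12 (ENSMUSG00000020022, chr10:94198720-94221443) had 36.2, 41.0, 42.0, 36.3, 41.3 and 40.7 CPM in KO libraries 1 to 6, against 31.8, 34.3, 34.3, 30.9, 34.6 and 33.1 CPM in WT libraries 1 to 6. The groups did not overlap, and the lowest KO libraries were 1 and 4. Its log2 fold change was 0.25 ± 0.06 (SE; edgeR, Benjamini-Hochberg adjusted p = 0.0404).

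The Ndufa12 call held in only 3 of 12 fits with 1 library left out. It was lost without any 1 of KO libraries 2, 3, 5 and 6 or WT libraries 1 to 5, and over the 12 fits the adjusted p ran from 0.0361 to 0.106 (edgeR). Summed with its copy Gm15920 (403 shared bases, 99.548% identity), it had a log2 fold change of 0.24 and an adjusted p of 0.0557. The authors' deposited table gave Ndufa12 a log2 fold change of 0.26 and an adjusted p of 0.587.

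Of the 31 members grouped as supernumerary subunits, which surround the core, 29 were positive. The 31 include Ndufb4c, annotated as a processed pseudogene, with 390 bases at 100% identity to Ndufb4. At a mean of 0.667 CPM, Ndufb4c had the largest log2 fold change of the 31, 0.31 ± 0.26 (adjusted p = 0.534, edgeR). Ndufa8, next in p after Ndufa12, had 82.1 to 98.9 CPM in KO (median 88.5) and 68.9 to 85.1 CPM in WT (median 72.1), with a log2 fold change of 0.26 ± 0.07 and an adjusted p of 0.0594 (edgeR). The groups overlapped through WT library 3, the highest of the WT libraries. Ndufa10, the most abundant supernumerary gene in CPM, had 144 to 166 CPM in KO (median 151) and 136 to 143 CPM in WT (median 141). Its groups did not overlap, but its log2 fold change of 0.13 ± 0.05 had an adjusted p of 0.180. Non-overlapping groups with KO higher were found for 4 of 104 members, Cycs, Ndufa12, Ndufa10 and Cox7a2, against 1.29% of all tested genes, and groups with KO lower for 0 members, against 1.24%.

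The 7 core subunits of complex I that are encoded in the nucleus, which carry the flavin and the iron-sulfur clusters, were all positive with 0 called (median 0.11). Ndufv1, the NADH-binding subunit, had 151 to 181 CPM in KO (median 163) and 134 to 163 CPM in WT (median 147), and 3 KO libraries lay above all WT libraries. Its log2 fold change was 0.14 ± 0.07 (adjusted p = 0.250, edgeR). Ndufs1, an iron-sulfur subunit, had a log2 fold change of 0.13 ± 0.05 (adjusted p = 0.169), with 5 KO libraries above all WT libraries.

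The 8 Ndufaf assembly factors had a median of 0.08 and 7 were positive. Ndufaf5, an arginine hydroxylase that acts on Ndufs7, had 3.63 to 4.51 CPM in KO (median 3.94) and 2.97 to 3.68 CPM in WT (median 3.43), with a log2 fold change of 0.26 ± 0.11 (adjusted p = 0.202, edgeR). Ndufaf4, an early assembly factor, was at 0.22 ± 0.09 (adjusted p = 0.183). Both ranges overlapped between the groups. The 5 negative members among the 104 were Ndufa7 (-0.12 ± 0.07), Ndufb9 (-0.04 ± 0.07), Ndufaf8 (-0.09 ± 0.09), Cox7a2l (-0.09 ± 0.06) and Ndufa4l2, none of them called.

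Complex II, succinate dehydrogenase, had the smallest median of the nuclear complexes, 0.07 over 4 genes, all positive and 0 called. Sdha, the flavoprotein subunit, had 449 to 554 CPM in KO (median 534) and 431 to 532 CPM in WT (median 500). The ranges overlapped, and 3 KO libraries lay above all WT libraries (log2 0.07 ± 0.08). Sdhb, the iron-sulfur subunit, was at 0.09 ± 0.08, and Sdhd, a membrane anchor, at 0.07 ± 0.07 (SE; edgeR, Benjamini-Hochberg adjusted p = 0.528 to 0.665 for the 3 genes).

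In complex III, all 9 nuclear members were positive and 0 called (median 0.11). Cyc1, cytochrome c1, which passes electrons on to cytochrome c, had 172, 180, 198, 199, 180 and 193 CPM in KO libraries 1 to 6, against 151, 159, 188, 162, 166 and 156 CPM in WT libraries 1 to 6. WT library 3 lay among the KO values and the other 5 WT libraries lay below them. The log2 fold change was 0.19 ± 0.07 (adjusted p = 0.124, edgeR). Uqcrc2, a core protein of the complex, was at 0.14 ± 0.06 (adjusted p = 0.191), and Uqcrq, the most abundant complex III gene in CPM, at 0.11 ± 0.07.

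Complex IV, cytochrome c oxidase, had 14 nuclear members, 12 of them positive and 0 called (median 0.12). Cox7a2, the form of subunit 7a found in liver, had 90.2 to 107 CPM in KO (median 93.2) and 78.7 to 89.5 CPM in WT (median 82.4). Its groups did not overlap, and KO library 3 was far above the other KO libraries. The log2 fold change was 0.18 ± 0.06 (adjusted p = 0.110, edgeR). Cox6a1 was at 0.18 ± 0.07 (adjusted p = 0.176), and Cox4i1, a subunit made early in assembly, at 0.07 ± 0.06.

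Isoforms of complex IV from other tissues or states were scarce. Cox7a1, the heart and muscle form, was at 2.44 CPM per kb of exon, against 94.7 CPM per kb for Cox7a2. It had 1.00 to 2.36 CPM in KO and 0.880 to 1.54 CPM in WT, and KO library 2 was the highest by a wide margin (log2 0.23 ± 0.24). Summed skeletal muscle markers, 6 of 8 measured and Myh2 and Mb not in the rows analysed, ran from 4.24 to 12.6 CPM in KO and 5.19 to 35.1 CPM in WT, and their part in this value was not tested. Ndufa4l2, a hypoxia-inducible relative of Ndufa4, had 0.890 to 1.66 CPM in KO and 1.30 to 2.16 CPM in WT, with a log2 fold change of -0.36 ± 0.20 (adjusted p = 0.311, edgeR). Cox4i2, Cox6a2, Cox6b2, Cox8b and Cox8c were not analysed here.

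In complex V, all 17 nuclear members were positive and 0 called (median 0.11). The largest differences were in small membrane subunits. Atp5md had 71.4 to 85.7 CPM in KO (median 77.5) and 60.8 to 75.1 CPM in WT (median 63.9), and 4 KO libraries lay above all WT libraries (log2 0.25 ± 0.07, adjusted p = 0.0722, edgeR). Atp5mpl had 51.9 to 63.0 CPM in KO (median 59.6) and 45.4 to 55.6 CPM in WT (median 49.8), with 5 KO libraries above all WT libraries (0.24 ± 0.07, adjusted p = 0.0741). The catalytic beta subunit gene Atp5b, the most abundant nuclear member in CPM, differed less, at 1026 to 1205 CPM in KO and 968 to 1114 CPM in WT (0.09 ± 0.07).

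Atp5g1, Atp5g2 and Atp5g3 encode the same mature c-ring subunit behind different import signals. Per kb of exon, Atp5g3 was highest with 149 CPM, followed by Atp5g2 with 37.5 and Atp5g1 with 17.9. None passed the test, with log2 fold changes of 0.12 ± 0.07 for Atp5g3, 0.06 ± 0.07 for Atp5g2 and 0.08 ± 0.08 for Atp5g1. Atpif1, the inhibitor of ATP synthase and outside the 104, had 4.72 ± 0.948 CPM in KO and 5.47 ± 1.02 CPM in WT (SD, n = 6 each; log2 -0.21, adjusted p = 0.478, edgeR).

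**Figure D2:**
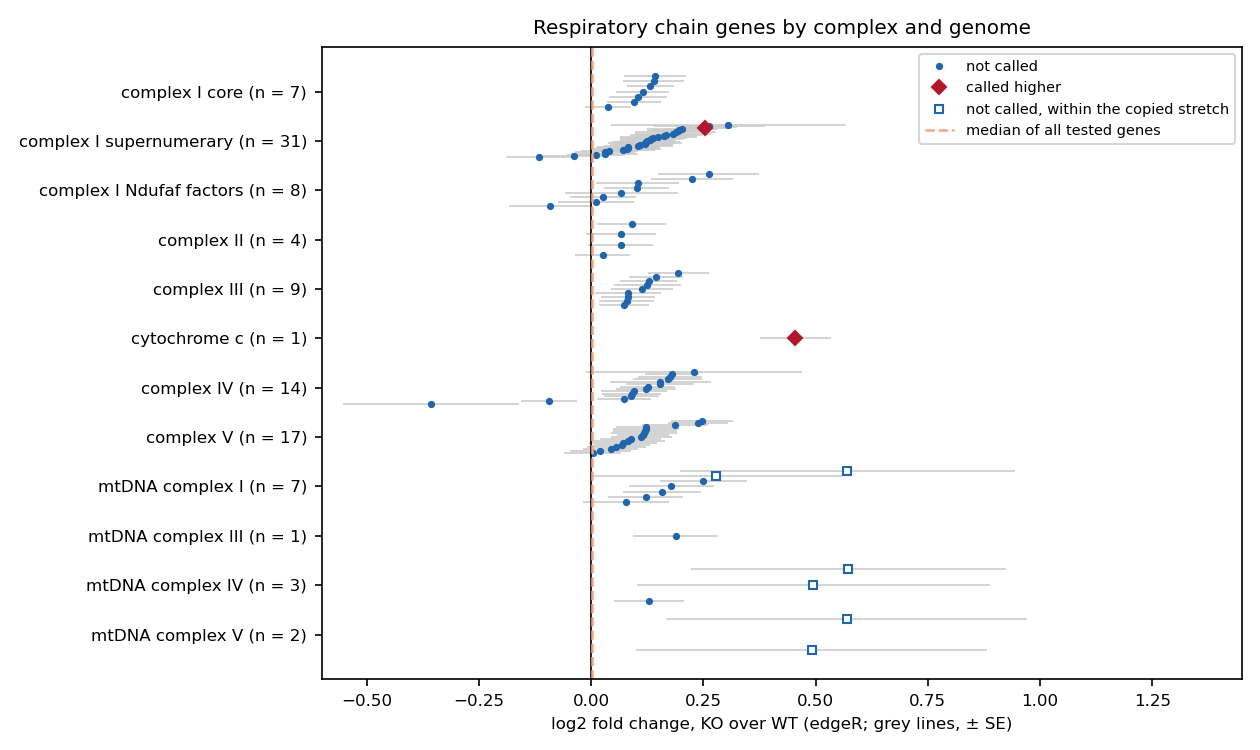
Log2 fold change, KO over WT, of each of the 104 members by complex and genome, with grey lines for ± SE, red diamonds for the 2 called genes and open squares for the 6 mtDNA genes within the stretch copied on chromosome 1. Most points lie to the right of 0 by less than 0.3, and the dashed line is the median of all tested genes at 0.0031.

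Levels per kb of exon, the union of annotated exons, spread widely within a complex. The highest nuclear member was Cox6a1 with 335 CPM per kb, and the lowest was Ndufb2 with 0.896. Medians were 46.3 CPM per kb for complex I core subunits, 7.33 for Ndufaf factors, 101 for complex II, 91.4 for complex III, 96.1 for complex IV and 61.0 for complex V. Exons of 25 nuclear members overlap those of another tested gene, among them Ndufs1, Ndufb2, Cox4i1, Ndufa4l2 and Atp5md, and 21 have a copy of at least 200 bases at 95% identity or more. Whether the counting used strand is unknown, so reads of these genes are uncertain.

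The mtDNA genes showed 2 patterns across libraries. Of the 13, all were positive and 0 were called, with a median log2 fold change of 0.25. The 7 genes mt-Nd1, mt-Nd2, mt-Co1, mt-Nd4, mt-Nd5, mt-Nd6 and mt-Cytb stood at 2406 to 12900 CPM per kb and varied by 1.3 to 1.49 times between the highest and lowest library, with a median log2 fold change of 0.16. The other 6, mt-Co2, mt-Atp8, mt-Atp6, mt-Co3, mt-Nd3 and mt-Nd4l, stood at 20.7 to 141 CPM per kb and varied by 3.17 to 6.8 times, with a median of 0.53.

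The low genes lie side by side on mtDNA, at chrM:7013-10173, in a stretch that has a near-identical copy in the nuclear genome. On chromosome 1, at 24611535 to 24616197 (GRCm38), lie pseudogenes that match 99.56% of mt-Co2 and mt-Atp6, 99.87% of mt-Co3, 99.14% of mt-Nd3 and 98.99% of mt-Nd4l, at 99.71% to 100% identity. No copy of mt-Atp8 is annotated, but 233 unannotated bases lie between the copies of mt-Co2 and mt-Atp6. The same stretch holds partial copies of mt-Nd4 (63.57% of its length) and mt-Co1 (31.26%). How reads shared by such copies were counted is unknown, so the values of the 6 genes are uncertain.

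Where a copy was annotated, it moved broadly with its gene from library to library, though the lowest library differed for some pairs. For mt-Atp8 there was no annotated copy to compare. The mt-Atp6 copy Gm10925 had 124 to 352 CPM in KO and 55.5 to 279 CPM in WT, while mt-Atp6 had 67.6 to 165 CPM in KO and 28.6 to 131 CPM in WT. Both were highest in KO library 3 and lowest in WT library 1. Summing each gene with its copy called none of them: mt-Co2 then had a log2 fold change of 0.62 ± 0.40 (adjusted p = 0.396, edgeR) and mt-Atp6 one of 0.57 ± 0.42 (adjusted p = 0.459).

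**Figure D3:**
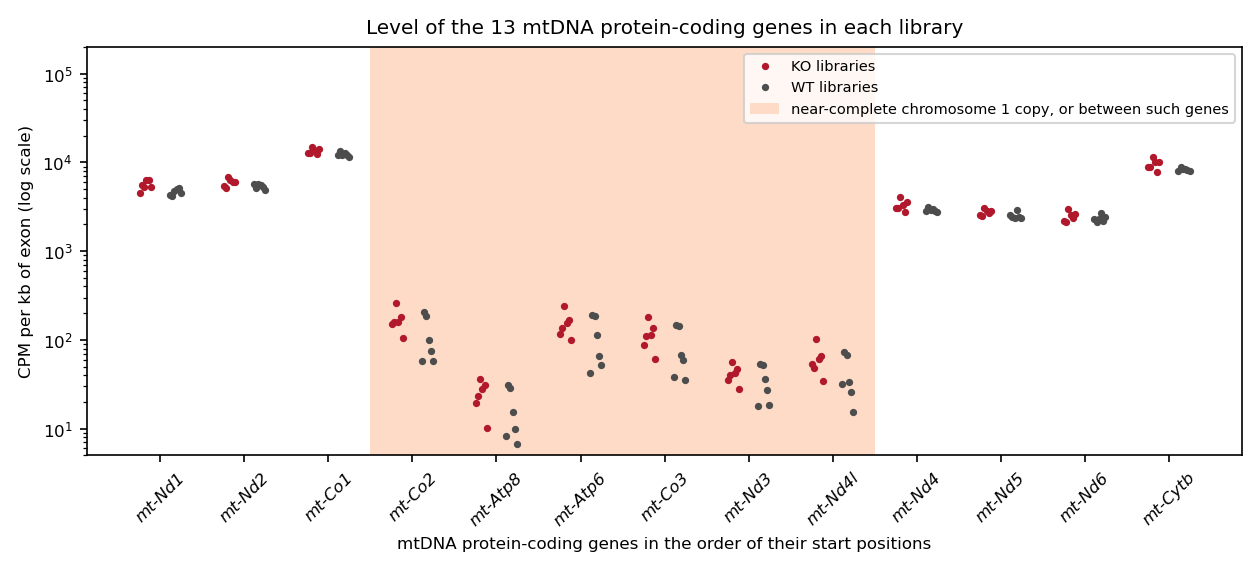
Level of the 13 mtDNA protein-coding genes in CPM per kb of exon on a log scale, in the order of their start positions, with 1 point per library and KO left of WT. The 6 genes in the shaded stretch, 20.7 to 141 CPM per kb on average, lie below the 7 others at 2406 to 12900 and are more widely spread.

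Among the 7 mtDNA genes outside that run, mt-Nd1, a core subunit of complex I, had the largest difference. It had 4339 to 6019 CPM in KO (median 5210) and 4041 to 4956 CPM in WT (median 4414), and 5 KO libraries lay above all WT libraries. The log2 fold change was 0.25 ± 0.10 (adjusted p = 0.163, edgeR). mt-Cytb, cytochrome b of complex III, was at 0.19 ± 0.09 and mt-Nd4 at 0.18 ± 0.10, each with 3 KO libraries above and KO library 5 below all WT libraries.

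The remaining differences were smaller. mt-Nd2 was at 0.16 ± 0.09, mt-Co1, the catalytic subunit of complex IV, at 0.13 ± 0.08, and mt-Nd5 at 0.12 ± 0.08. mt-Nd6, the 1 member on the other strand of mtDNA, was at 0.08 ± 0.10, with 1099 to 1557 CPM in KO and 1115 to 1389 CPM in WT. Adjusted p-values ran from 0.163 to 0.689 for these 7 genes (edgeR). Exons of mt-Nd5 and mt-Nd6 overlap on opposite strands, and those of mt-Nd4 and mt-Nd4l on the same strand. Whether the counting used strand is unknown, so reads of mt-Nd6 are uncertain. The part of polyA selection in the mt-Nd6 level was not tested.

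For the 6 genes within the copied stretch, WT libraries fell on both sides of the KO libraries. mt-Co2, a copper-binding subunit of complex IV, had 103, 109, 176, 110, 123 and 72.3 CPM in KO libraries 1 to 6, against 39.4, 141, 127, 68.6, 51.1 and 39.1 CPM in WT libraries 1 to 6. WT libraries 2 and 3 lay above 5 of the KO libraries and the other 4 WT libraries lay below all of them. Log2 fold changes were 0.57 ± 0.35 for mt-Co2, 0.49 ± 0.39 each for mt-Atp6 and mt-Co3, 0.57 ± 0.40 for mt-Atp8, 0.57 ± 0.37 for mt-Nd4l and 0.28 ± 0.28 for mt-Nd3. Adjusted p-values ran from 0.372 to 0.613 (edgeR).

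The ribosomal RNAs of mtDNA differed in sign from each other. mt-Rnr1 had 1839 ± 359 CPM in KO and 1771 ± 583 CPM in WT, with a log2 fold change of 0.06 ± 0.20, and mt-Rnr2 had 2629 ± 478 CPM in KO and 2883 ± 680 CPM in WT, with -0.13 ± 0.16 (SD, n = 6 each; SE). Neither was called (adjusted p = 0.907 and 0.688, edgeR). The part of polyA selection in these levels was not tested.

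Library means show how far the sign of the members rested on single libraries. The mean deviation of the 91 nuclear members from the 12-library mean was -0.07, 0.02, 0.17, 0.04, 0.05 and 0.12 (log2) in KO libraries 1 to 6, against -0.11, 0.00, 0.03, -0.06, -0.09 and -0.08 in WT libraries 1 to 6. KO library 1 lay among the WT libraries, KO library 2 lay below WT library 3, and the other 4 KO libraries lay above all WT libraries. Nuclear members took 1.11% ± 0.0526 of counts in KO and 1.04% ± 0.0497 in WT, and the 13 mtDNA genes took 5.41% ± 0.347 in KO libraries and 4.90% ± 0.282 in WT libraries (SD, n = 6 each).

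Without KO library 3, the nuclear median log2 fold change was 0.07, against 0.11 with it, and 78 of 91 nuclear members were positive. The median of the 7 mtDNA genes outside the copied stretch, the partly copied mt-Nd4 and mt-Co1 among them, was then 0.10, against 0.16. All 13 mtDNA genes were still positive. KO library 3 was the highest library for 6 of these 7 genes and for 6 of the 6 within the stretch.

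**Figure D4:**
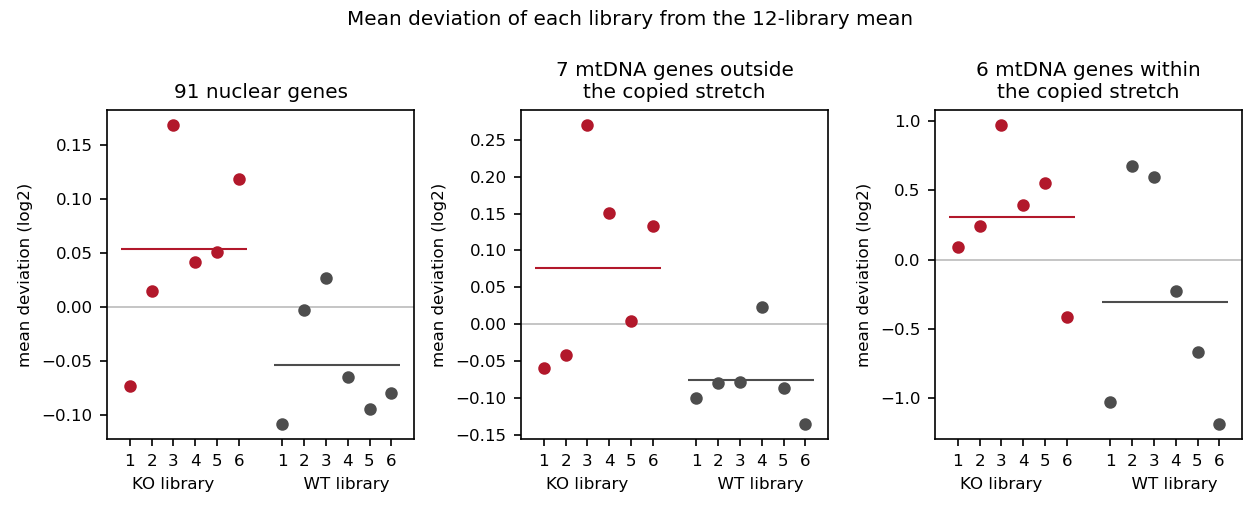
Mean deviation (log2) of each library from the 12-library mean for the 91 nuclear members, the 7 mtDNA genes outside the copied stretch and the 6 within it. KO libraries are left of WT, with lines at the group means (the vertical scales differ). Of the 7, mt-Nd4 and mt-Co1 are partly copied. KO library 3 is the highest in each panel, at 0.17, 0.27 and 0.97.

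Markers of other cells differed in direction from list to list. Of 14 macrophage markers all were negative and 3 fell, and their summed level was 220 to 426 CPM in KO and 370 to 586 CPM in WT. Of 5 T and NK cell markers tested, 4 were negative and 1 fell. Markers of B cells (6 of 6), neutrophils (3 of 3) and sinusoidal endothelium (6 of 6) were negative. Those of cholangiocytes (5 of 5) and erythroid cells (4 of 4) were positive, and of 6 stellate cell markers 4 were positive and 2 negative. In these 6 lists 0 genes were called. A macrophage score was lower in KO on average, with overlap, at -1.15 to 0.544 in KO and 0.0813 to 1.39 in WT. With this score as a covariate, the nuclear median was 0.12 and 80 of 91 were positive, while 0 members and 0 genes were called (1454 genes at an unadjusted p under 0.05, edgeR). Because the score largely followed the groups, this fit cannot tell score and group apart. Of the adipocyte markers, Cfd was measured, at 0.863 to 41.0 CPM in KO and 2.98 to 18.1 CPM in WT, and Adipoq, Lep, Plin1, Retn and Ucp1 were not in the rows analysed. A clock phase score was higher in KO on average, with overlap, at -0.63 to 2.55 in KO and -2.45 to 0.47 in WT. With it as a covariate the nuclear median was 0.19, again with 0 members and 0 genes called (1029 genes at an unadjusted p under 0.05).

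Genes that assemble, supply or regulate the chain were counted in 13 lists with 132 tested genes. Of these, 3 rose and 1 fell, while 1.15% of all 15000 tested genes rose and 1.49% fell, so these counts do not set the lists apart. In sign, 82 were positive, against 50.6% of all tested genes, and the median log2 fold change was 0.03. Both the median and the proportion positive were lower than for the 104 members, which include the 8 Ndufaf assembly factors. The difference between the lists and the members was not tested.

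Foxred1, an assembly factor of complex I, had 47.7, 42.9, 42.0, 40.4, 43.4 and 45.8 CPM in KO libraries 1 to 6, against 34.4, 34.8, 34.8, 32.9, 34.9 and 31.3 CPM in WT libraries 1 to 6. The groups did not overlap and KO library 1 was the highest. Its log2 fold change was 0.37 ± 0.06 (edgeR, Benjamini-Hochberg adjusted p = 0.0114), and the call held with each library left out in turn (adjusted p up to 0.0436). It was the 1 called gene among 11 further complex I assembly factors, of which 7 were positive.

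The list of complex IV assembly and copper delivery had 18 of 21 genes positive, 2 called higher and a median of 0.12. Higd1a, a small inner membrane protein that binds complex IV, had 45.6 to 56.5 CPM in KO and 32.9 to 42.9 CPM in WT, without overlap (log2 0.41 ± 0.08, adjusted p = 0.0245, edgeR). It missed the test when KO library 6 or any 1 of WT libraries 2, 4 and 5 was left out (adjusted p up to 0.0631). Cox19, a copper chaperone of the intermembrane space, had 34.7 to 53.2 CPM in KO and 29.5 to 36.6 CPM in WT, with KO library 5 among the WT values (0.40 ± 0.09, adjusted p = 0.0414). The Cox19 call was lost without any 1 of 9 libraries, KO libraries 1 to 4 and 6 and WT libraries 2 to 5 (adjusted p up to 0.108).

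Among 17 transcriptional regulators of the chain, 7 were positive, 10 negative and 1 fell. Gabpa, the ETS subunit of the factor GABP, had 38.9 to 48.8 CPM in KO and 49.8 to 57.1 CPM in WT, without overlap (log2 -0.29 ± 0.07, adjusted p = 0.0360, edgeR). Its call was lost without any 1 of 9 libraries, KO libraries 2 and 4 to 6 and WT libraries 1 to 5 (adjusted p up to 0.0924). Gabpa shares exon sequence with Atp5j on the opposite strand, so reads of both are uncertain, and Atp5j itself was at 0.12.

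**Figure D5:**
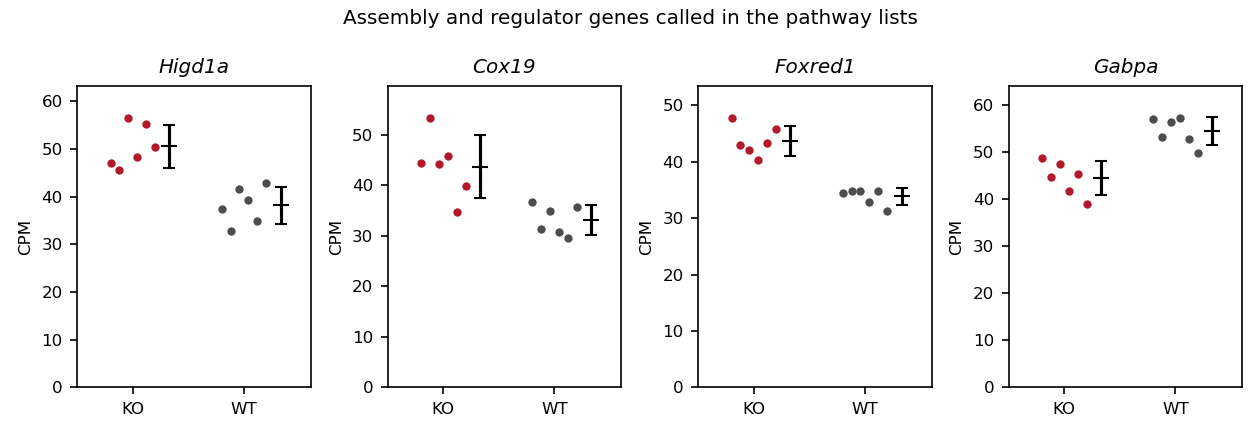
Level in CPM of Higd1a, Cox19, Foxred1 and Gabpa, with 1 point per library, KO left of WT, and the black bar showing mean ± SD (n = 6 each). The first 3 are higher in KO, with overlap only for Cox19, and Gabpa is lower in KO.

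In the other lists 0 genes were called. Coenzyme Q synthesis had 7 of 13 positive, with the smallest p for the kinase-like gene Coq8a, which had 330 ± 55.3 CPM in KO and 252 ± 24.0 CPM in WT (log2 0.39 ± 0.11, adjusted p = 0.0713, edgeR). Other routes of electrons to coenzyme Q had 3 of 9 positive, and Gpd2, the mitochondrial glycerol phosphate dehydrogenase gene, had 63.0 ± 14.2 CPM in KO and 44.1 ± 7.19 CPM in WT (0.52 ± 0.15, adjusted p = 0.0828). Slc25a3, the phosphate carrier, was at 0.16 ± 0.06 (4 of 6 positive in its list), and Chchd4, an import receptor of the intermembrane space, at 0.19 ± 0.08 (6 of 6).

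Genes that maintain and transcribe mtDNA had 6 of 16 positive, with Polg2, a polymerase subunit, at -0.29 ± 0.12 (adjusted p = 0.196, edgeR). Mitochondrial RNA processing had 13 of 18 positive, with Trmt10c, a tRNA-processing gene, at 0.34 ± 0.10 (adjusted p = 0.0808). Assembly factors of complex II (4 of 4 positive), complex III (4 of 6) and ATP synthase (2 of 3) had the smallest p for Sdhaf2 (log2 0.07), Uqcc2 (0.24) and Atpaf2 (0.14), with adjusted p-values of 0.120 to 0.488 (edgeR). The prohibitin list had Phb positive and its partner gene Phb2 negative.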

How the data were processed

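Liver RNA was measured in 12 libraries. Per the file headers, the authors deposited raw read counts of each gene as whole numbers, without normalization. They also deposited a comparison of their own, with log2 fold changes, p-values raw and adjusted, a test statistic (a score) and a mean signal of normalized counts per gene, per the file headers; the score and the signal were not used. The submitters' processing notes name FastQC, Trimmomatic, HISAT2, SAMtools, featureCounts, DESeq2 and build GRCm38; for annotation release, strand and multi-mapped reads, nothing is stated in the sources used here. Groups and replicate numbers came from the sample titles.

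Of 15344 rows, 204 repeats of a gene were left out. Positions and exon lengths came from GENCODE M21 (GRCm38), for 15127 of 15140 genes, and 1 symbol ending in -ps was dropped. Counts were tested with edgeR 4.0.16 (R 4.3.3), robust quasi-likelihood fit, TMM scaling and filterByExpr (15000 genes kept, 140 removed), two-sided, adjusted over all tested genes. Each SE is the unshrunk log2 fold change divided by the square root of F. The test was also run on simulated counts, and its power for differences as small as those of most members is not reported here. All 30 within-group pairs of libraries were distinct, with chi-square over degrees of freedom of 38.49 to 245.3.

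Members, gene lists and tests were chosen with earlier results of these data known. The text names called members, the 13 mtDNA genes, Cycs and Cyc1. Of each nuclear group it names the 2 genes with the smallest p and the most abundant one, and it adds listed isoforms; 1 gene that this rule names is not reported here. Of each pathway list it names the called gene or the one with the smallest p. The 5 negative members, the members with non-overlapping groups, Ndufb2, Ndufb4c, Phb2, the near-identical copies and the ribosomal RNAs were added after their values were seen. Alternatives were DESeq2 1.42.0, limma-voom (limma 3.58.1), other scalings and filters, a replicate block, covariates and each library left out.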

Additional observations from a re-analysis of the deposited data

Results flagged for a closer look

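Each group of 6 libraries was examined for a library far from the rest, by the gap to its nearest neighbour divided by the range of the group. Of 114 groups, 6 exceeded Dixon's 95% critical value for 6 samples, and chance flags about 1 in 20 groups, or 5.7. Levels are log2 CPM.

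For Cox7a2, KO library 3 was high (gap 0.734), at 6.75 against 6.50 to 6.57 in the other KO libraries. For Uqcrc2, KO library 5 was low (gap 0.698), at 7.37 against 7.51 to 7.57. For Slc25a3, KO library 6 was high (gap 0.682), at 8.41 against 8.23 to 8.29. For Ndufaf4, WT library 3 was high (gap 0.689), at 5.09 against 4.83 to 4.91 in the other WT libraries. For Atpif1, WT library 1 was low (gap 0.808), at 1.98 against 2.59 to 2.73. The mean deviation of the 7 mtDNA genes outside the copied stretch was high in WT library 4 (gap 0.643), at 0.02 against -0.14 to -0.08.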

How the results depend on the processing

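As reported, 2 members and 396 genes were called. DESeq2 called 6 members, all higher, and 1232 genes. Total counts alone as the scaling called 1 member, higher, and 257 genes. Summing near-identical copies, chosen after seeing the data, called 1 member, higher. With the macrophage score or the clock phase score as a covariate, 0 members and 0 genes were called. Both scores differed between the groups, so these fits cannot tell score and group apart. Under the clock phase score the nuclear median was 0.19, that of the 7 mtDNA genes outside the copied stretch (a summary chosen after seeing the data) 0.28, and Cox7a1 (-0.16) and Polg2 (0.10) changed sign. Gpd2 changed sign under the macrophage score (-0.082). With each library left out, 0 to 3 members were called, all higher and 0 lower, and 25 to 700 genes. The nuclear median then ran from 0.07 to 0.14, that of the 13 mtDNA genes from 0.16 to 0.30 and that of the 7 from 0.10 to 0.20. The cause of these changes was not tested.

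Same-numbered libraries did not deviate together in every pair (r from -0.209 to 0.354, over 0.1 in 4 of 6 pairs). Whether the numbers pair the libraries cannot be told from such mixed values, and no label states a pairing. With the replicate number as a block, 374 genes and 2 members were called and Cox19 was not. Over limma-voom, RLE size factors, library sizes without mtDNA genes, no filter, and a filter of 1 CPM in 6 libraries (103 members tested), 2 members were called each time.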
